A study of Mus musculus with 6 samples.

Results

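Translation initiation and elongation factors are the proteins that place a ribosome on an mRNA and move it along the coding sequence. Their mRNAs were taken from the deposited table by symbol, as every gene whose name starts with *Eif1* to *Eif6*, *Eef1* or *Eef2*, apart from the Argonaute genes once named *Eif2c*. This gave 63 of the 25899 symbols, which were grouped by factor complex. The symbol rule also takes in genes that are not subunits of a factor, such as kinases that act on eIF2 and eEF2, the pseudogene *Eif3s6-ps2* and *Eef1e1*, a component of the multi-tRNA synthetase complex.

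The libraries analysed here came from oocytes of aged females (AF), CD1 mice of 58 weeks by the sample labels, while the methods of the study name the strain ICR and give a different age. Fully grown oocytes were collected 46 h after gonadotropin, cultured for 180 min without the phosphodiesterase inhibitor that holds meiotic arrest, and taken after nuclear envelope breakdown. All 6 libraries share a final treatment with 0.1 mg/ml cycloheximide for 10 min, which keeps ribosomes on the mRNA, and each sample held 200 oocytes. The lysate was separated on a 10% to 50% sucrose gradient into 10 fractions, which were pooled into non-polysomal (NP) RNA, free or bound to monosomes, and polysomal (P) RNA, with 3 libraries of each. The number of mice behind a sample is not given in the sources used here, so the p-values measure only the spread between these samples. Young (YF) oocytes were not analysed here.

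In initiation, eIF2 brings the initiator tRNA to the small ribosomal subunit, eIF3 scaffolds that subunit, eIF4 factors bind the cap and unwind the leader, and eIF5 and eIF5B prepare the joining of the large subunit. In elongation, eEF1A delivers aminoacyl-tRNAs, and eEF2 moves the ribosome by a codon. The fully grown oocyte makes no new mRNA, so it draws these factors from stored mRNA and protein until the embryonic genome is active.

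The deposited values are FPKM, which is scaled to exon length and to the mapped reads of a library. A comparison of levels between genes thus also depends on the exon length used and on the amplification, and neither was tested. For *Eif3k*, the annotated exons cover 2698 bases, while the transcript with the longest coding sequence has 774. The share of an mRNA that sat on polysomes cannot be computed. FPKM is relative to its library, so a lower FPKM in P need not mean fewer copies of that mRNA. Where copies are fewer, fewer oocytes and fewer copies per oocyte cannot be told apart. All listed FPKM summed to 611904, 633110 and 597261 in NP replicates 1, 2 and 3. In P replicates 1, 2 and 3 they summed to 341539, 246182 and 393876, and the part of this difference in the ratios was not tested. Estimated depth, recovered from the steps between low values, was 1237729 to 18096195 reads in NP and 163816 to 1549226 reads in P, the lowest being AF P replicate 1. All 10 oocyte marker mRNAs, among them *Zp3* and *Gdf9*, were above 0 in all 6 libraries, with a summed level of 10925 to 13542 FPKM in NP and 4979 to 13616 in P. Of 10 granulosa and cumulus markers, 6 were listed at 0 in all 6 libraries, *Foxl2* and *Fshr* included, while the NP libraries held *Cyp19a1* at 7.15, 22.5 and 104 FPKM and *Nr5a2* at up to 26.9 FPKM. In P, *Cyp19a1* was above 0 in replicate 1 alone, at 15.4 FPKM. The list summed to 11.2 to 131 FPKM in NP and 1.18 to 16.5 in P. The 5 blood genes in the table were all listed at 0.

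The translation factor mRNAs were abundant, and by their means eIF3 mRNAs held the largest part, with 12349 of a summed NP mean of 22112 FPKM and 2261 of a summed P mean of 6035 FPKM. The eIF3 mean in P was 1265 FPKM without P replicate 1, and in P replicate 3 *Eif6* and *Eef2* alone were each above the eIF3 sum of 821 FPKM. The members' summed level was 4.43%, 3.79% and 2.55% of all FPKM in NP replicates 1, 2 and 3, and 2.45%, 1.88% and 1.30% in P replicates 1, 2 and 3. Each P library was thus below each NP library. A mean above 1 FPKM was found for 56 members in NP and 50 in P, and 39 were above 0 in all 6 libraries. By mean NP level, *Eif3k* came first at 6531 ± 3090 FPKM (SD, n = 3). It was followed by *Eif6* at 2548 ± 477, *Eif3d* at 2545 ± 1653, *Eif3l* at 2295 ± 918 and *Eef2* at 2053 ± 171, and neighbours among these 4 differed by less than the larger of their SDs. *Eef1a1* was next at 1097 ± 54.7 FPKM. Over all 6 libraries *Eif3k* ranked 7 among the 25899 symbols by mean FPKM. In P, the order was led by *Eif3h* at 931 ± 1465 FPKM, *Eif3l* at 703 ± 372, *Eif6* at 668 ± 420, *Eef2* at 636 ± 284 and *Eef1a1* at 541 ± 130, where again no neighbours differed by more than the larger SD. The place of *Eif3h* came from AF P replicate 1, and its mean over the other 2 P libraries was 86.7 FPKM.

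**Figure D1:**
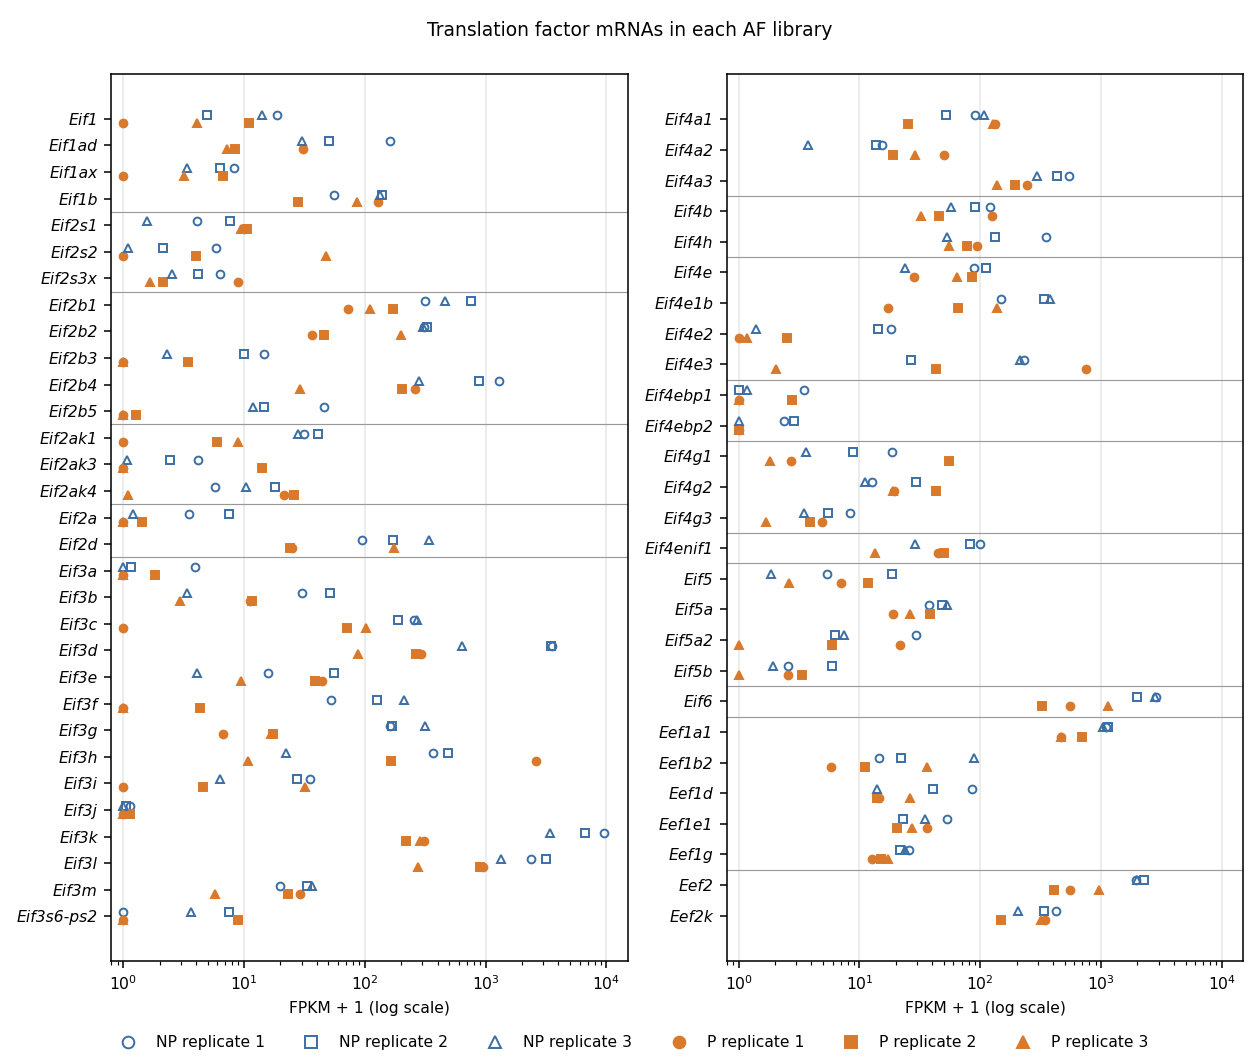
Level of each translation factor mRNA above 0 in at least 1 library, as FPKM + 1 on a log axis, with open symbols for the 3 NP libraries and filled symbols for the 3 P libraries, and lines between factor complexes. *Eif3k*, *Eif3d*, *Eif3l*, *Eif6* and *Eef2* lie furthest to the right in NP, and many members sit at 0 FPKM (the left edge) in AF P replicate 1, the circles.

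Detection in P was uneven. Of the 50 members with a mean above 1 FPKM in P, 39 were above 0 in all 3 P libraries, and in 7 a single P library held over 90% of the summed level. Among these, *Eif3h* had 93.8% and *Eif4e3* 94.6% in replicate 1, *Eif4g1* 95.6% in replicate 2 and *Eif2s2* 94.0% in replicate 3. In total 9 members were above 0 in 1 P library only, and 16 members listed at 0 in AF P replicate 1 were above 0 in replicate 2. Across the 56 members tested, log2(FPKM + 1) correlated between NP libraries at r = 0.90 to 0.93 and between P libraries at r = 0.66 to 0.83, a description across genes, which are not independent replicates. The members listed at 0 in all 6 libraries were *Eef1a2*, *Eif1a*, *Eif2ak2*, *Eif2s3y* and *Eif4ebp3*. *Eif4ebp2* was listed at 0 in every P library.

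P and NP were compared with limma on log2(FPKM + 1) over the 10578 genes with a mean above 1 FPKM in either fraction, with an adjusted p under 0.1 (Benjamini-Hochberg) as the threshold. Of the 63 members 56 were tested, and 6 of them had passed the filter through their NP mean alone. Most genes had a lower FPKM in P, with a median log2 ratio of P over NP of -1.03 over all genes tested, so ratios are also given relative to that shift. The median of the members was likewise -1.03, 28 of the 56 members lay below the median of all genes, and 48 (85.7%) had a ratio below 0, against 80.1% of all genes tested. The share below 0 depends on the scaling: with median-of-ratios scaling, quantile normalization and a common FPKM sum it was 33 of 54, 28 of 56 and 33 of 55 members, against 59.7%, 49.9% and 61.6% of all genes.

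Past the threshold, 5 members were lower in P and 0 were higher. The 5 lower members were *Eif3k*, *Eif3f*, *Eif3d*, *Eif3g* and *Eif6*, which are 8.93% of the 56 tested, against 1.8% of all genes tested. None was higher in P by limma, against 0.0189% of all genes tested, and 15 members (26.8%) had an unadjusted p under 0.05, against 15.8% of all genes. All 3 P libraries lay below all 3 NP libraries for 17 members (30.4%), against 23.2% of all genes tested. Of these 17, *Eif2b5* had passed the filter through its NP mean alone. All 3 P libraries lay above all 3 NP libraries for 2 members (3.57%), *Eif2s1* and *Eif4a2*, against 0.633%. Only *Eif3k* kept its call whichever library was left out. With any NP library left out it was the 1 member called, whereas 5, 4 and 10 members were called without P replicate 1, 2 and 3. The calls over all genes moved as well, with 2, 10 and 1 genes lower in P without NP replicate 1, 2 and 3 and 236, 154 and 328 without P replicate 1, 2 and 3. Without P replicate 3, *Eef2*, *Eif2b2*, *Eif2d*, *Eif3c* and *Eif4e1b* joined the 5, and without P replicate 1, *Eif2b4* was called in place of *Eif6*. An exact permutation of 3 libraries against 3 has p = 0.1 as its smallest two-sided value for any one gene.

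**Figure D2:**
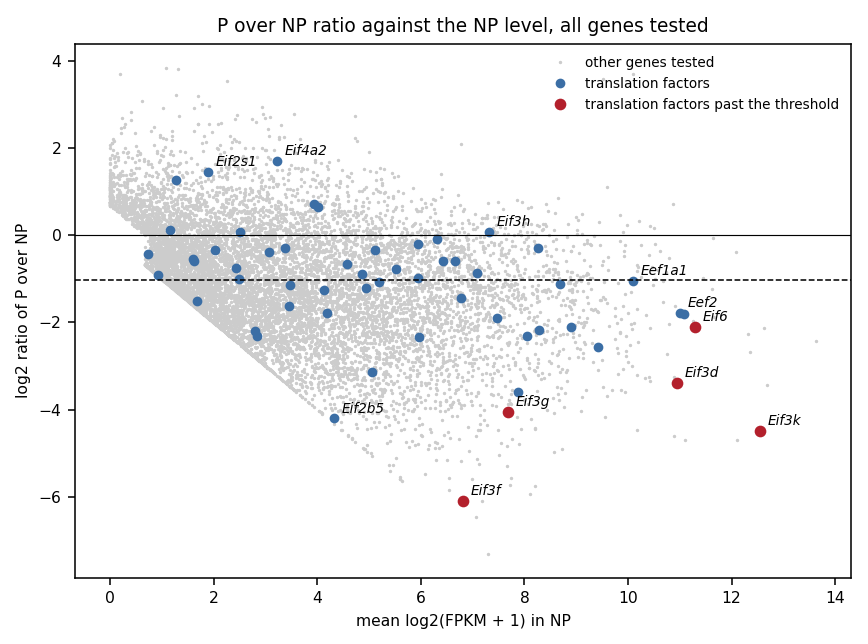
Log2 ratio of P over NP (FPKM + 1) against the mean log2(FPKM + 1) in NP for the 10578 genes tested (grey), with translation factors in blue and those past the threshold in red. The dashed line is the median of all genes at -1.03. *Eif3k*, *Eif3d* and *Eif6* lie among the highest NP levels with ratios of -4.49, -3.38 and -2.10, and *Eif3f* lies near the bottom edge at -6.10.

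The multi-subunit factor eIF3 held 4 of the 5 members past the threshold. Of the 13 genes tested in this group, which include the pseudogene *Eif3s6-ps2*, 4 (30.8%) were lower in P, against 1.8% of all genes, and 0 were higher. An unadjusted p under 0.05 was found for 6 (46.2%), against 15.8% of all genes. Their median log2 ratio was -1.79, which is 0.76 below the median of all genes tested. The eIF3 median minus that of all genes was -0.48, -0.90 and -0.56 under median-of-ratios scaling, quantile normalization and a common FPKM sum, but -0.30 without P replicate 3 and -0.085 at a pseudocount of 0.1. Under each of these 3 scalings *Eif3k* was the 1 member called. The log2 ratios then ranged from -5.47 to -5.18 for *Eif3f* (adjusted p = 0.133 to 0.243, limma), from -2.45 to -2.34 for *Eif3d* (adjusted p = 0.229 to 0.650) and from -3.15 to -2.99 for *Eif3g* (adjusted p = 0.358 to 0.501). The ratios within the complex ran from -6.10 for *Eif3f* to 0.73 for *Eif3e*.

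*Eif3k* (chromosome 7, 28971373 to 28981814, minus strand, GRCm38), which encodes a small peripheral subunit, was at 9588, 6596 and 3409 FPKM in NP replicates 1, 2 and 3 and at 308, 216 and 285 FPKM in P. The lowest NP library was thus far above the highest P library. Its log2 ratio was -4.49 (SE 0.51, adjusted p = 5.82e-05, limma), a 22.4-fold lower FPKM + 1 in P, and lay 3.45 below the median of all genes. Under the 3 alternative scalings it was 11.2-fold to 12.2-fold lower. *Eif3d* (chromosome 15, 77958998 to 77970824, minus strand), a subunit with a cap-binding activity of its own, was at 3540, 3459 and 637 FPKM in NP and at 291, 266 and 87.5 FPKM in P. NP replicate 3 was the low library of its fraction, and so was P replicate 3. The log2 ratio of *Eif3d* was -3.38 (SE 0.69, adjusted p = 0.024, limma). With each library left out in turn, it ranged from -4.20 to -2.83. *Eif3d* was then called in 3 of 6 fits, with an adjusted p up to 0.365 (limma). Of its annotated 50-base stretches 37.2% also occur in the predicted gene *Gm17638*, so reads of both genes could be split or lost, and its level is uncertain to that extent.

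*Eif3g* (chromosome 9, 20894352 to 20898600, minus strand), a subunit with an RNA recognition motif, was at 160, 167 and 316 FPKM in NP and at 5.68, 16.3 and 15.6 FPKM in P. The groups did not overlap, and the log2 ratio was -4.04 (SE 0.91, adjusted p = 0.0416, limma). The value of *Eif3g* in P replicate 1 corresponds to about 2 recovered reads. There 3 reads would be worth 9.23 FPKM, still below its lowest NP value. *Eif3f* (chromosome 7, 108934417 to 108942951, plus strand), an MPN-domain subunit, had 51.1, 126 and 210 FPKM in NP, at 3.33 FPKM in P replicate 2 and listed at 0 in P replicates 1 and 3. The value in P replicate 2 corresponds to 11 recovered reads. With a limit of 3 reads, which covers counting error only, a listed 0 allows up to 6.33 FPKM in P replicate 1 and up to 0.670 in P replicate 3, both below the lowest NP value. Its log2 ratio was -6.10 (SE 1.15, adjusted p = 0.0138, limma), the 3rd lowest of all 10578 genes tested, and depends on the pseudocount.

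Around the RefSeq start sites of these genes the sequence differed in one feature looked for. Many mRNAs of the translation machinery start with a terminal oligopyrimidine (TOP) tract, a C followed by a run of C and T, through which mTOR signalling is known to control their translation. The windows below run from 10 bases before the listed start, are 30 bases long and are given 5′ to 3′ on the strand of the gene (GRCm38.p6). Capitals mark a C followed by at least 4 pyrimidines that begins within 5 bases of the start. They show the 4 eIF3 mRNAs past the threshold, followed by *Eef1a1*, a well-known TOP mRNA that has such a match.
Eif3f, chr7:108934405-108934434, plus: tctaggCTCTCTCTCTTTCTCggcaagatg
Eif3k, chr7:28981869-28981898, minus: aaccggcgctggtgctgaaagcgcctttcc
Eif3d, chr15:77970805-77970834, minus: agggccatttacgacagcgctggtcgccgt
Eif3g, chr9:20898571-20898600, minus: acccgggctgggagctgcgtggagttaaga
Eef1a1, chr9:78481705-78481734, minus: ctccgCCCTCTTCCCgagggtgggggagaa

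Of these 4 eIF3 mRNAs, *Eif3f* alone had such a tract, of 15 bases, and the windows of *Eif3k*, *Eif3d* and *Eif3g* held none. Of 48 members with a listed promoter, 11 (22.9%) had a tract, against 14.5% of the 27025 symbols listed. Of the 10 of these 11 that were tested, 1 was lower in P and the median log2 ratio was -1.53, while of 35 without a tract 3 were lower and the median was -0.92, against 1.8% lower and a median of -1.03 over all genes tested. For 9 members known as TOP mRNAs (*Eef1a1*, *Eef1b2*, *Eef1d*, *Eef1g*, *Eef2*, *Eif3e*, *Eif3f*, *Eif3h* and *Eif4b*), 1 was lower in P, 0 were higher and the median was -1.04. For the 47 other members tested, 4 were lower and the median was -1.01, beside the same 1.8% and -1.03 of all genes. The tract is a match of letters in a listed window, not a mapped start site. Of the 5 known TOP mRNAs among the members with a window, 2 had a match (*Eef1a1* and *Eif3f*) and *Eef2*, *Eef1b2* and *Eif4b* had none, so a window without a match does not show that the mRNA lacks a tract.

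The other eIF3 mRNAs did not pass the threshold in this fit, which has no replicate block. With the replicate number added as a block, *Eif3c* and *Eif3l* passed as lower in P (adjusted p = 0.0567 and 0.0460, limma). So did 6.27% of all genes tested. *Eif3l*, a partner of *Eif3k* in the outer part of the complex, was at 2388, 3163 and 1333 FPKM in NP and at 945, 890 and 275 FPKM in P. All its P libraries lay below its NP libraries, with a log2 ratio of -1.81 (SE 0.56, adjusted p = 0.13, limma). *Eif3c*, a core scaffold subunit, was at 253, 187 and 268 FPKM in NP and at 0, 69.9 and 102 FPKM in P, with a log2 ratio of -3.59 (SE 1.24, adjusted p = 0.167, limma). Without P replicate 1, where it was listed at 0, the ratio of *Eif3c* was -1.46, while without P replicate 3 it passed the threshold (adjusted p = 0.0438). *Eif3h* was at 368, 486 and 21.2 FPKM in NP and at 2621, 164 and 9.79 FPKM in P. Of its 50-base stretches 20.3% occur in other genes. Its fractions overlapped over the whole range, and the log2 ratio was 0.07 with a 95% interval of -2.71 to 2.86. *Eif3e* was at 14.7, 54.8 and 3.05 FPKM in NP and at 43.6, 37.5 and 8.38 FPKM in P, a log2 ratio of 0.73 with a 95% interval of -1.69 to 3.14.

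The subunits of eIF3 act as 1 particle, yet their mRNA levels were far apart. The core subunits *Eif3a* and *Eif3b* were at no more than 2.97 and 51.0 FPKM in any library, and *Eif3j* stayed below 0.151 FPKM and was not tested. *Eif3k* held 58.3%, 46.0% and 54.6% of the summed eIF3 FPKM in NP replicates 1, 2 and 3. In P the leading subunit differed between libraries, with *Eif3h* at 61.6% in replicate 1, *Eif3l* at 52.1% in replicate 2 and *Eif3k* at 34.7% in replicate 3. The summed eIF3 level was 16449, 14355 and 6243 FPKM in NP and 4252, 1708 and 821 FPKM in P.

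**Figure D3:**
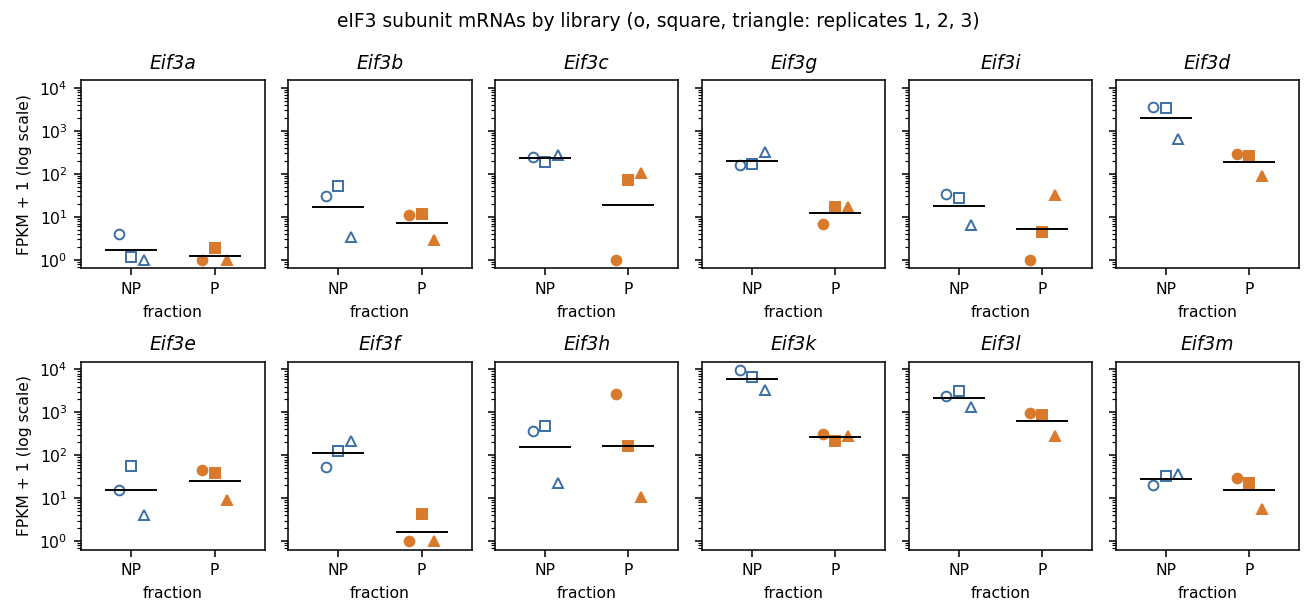
Levels of 12 eIF3 subunit mRNAs as FPKM + 1 on a log axis, 1 panel each, with circles, squares and triangles for replicates 1, 2 and 3 of NP (open, blue) and P (filled, orange) and a bar at the mean of the logs. The P points of *Eif3k*, *Eif3d*, *Eif3g* and *Eif3f* lie below all NP points, while those of *Eif3e*, *Eif3h* and *Eif3m* overlap with NP.

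*Eif6* (chromosome 2, 155819832 to 155826925, minus strand) encodes a factor that binds the large ribosomal subunit and keeps it from joining the small one too early. It was at 2846, 1998 and 2801 FPKM in NP and at 549, 321 and 1134 FPKM in P. The highest P library was below the lowest NP library, and the log2 ratio was -2.10 (SE 0.53, adjusted p = 0.0624, limma), which is 1.07 below the median of all genes tested. This call was kept in 4 of 15 alternatives and was lost without P replicate 1 or 2 and without any NP library, with adjusted p-values up to 0.395 when 1 library was left out. The ratio itself then ranged from -2.58 to -1.67, and it was -1.10, -1.22 and -1.17 under median-of-ratios scaling, quantile normalization and a common FPKM sum.

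None of the mRNAs of eIF2 and of its exchange factor passed the threshold in this fit, which has no replicate block, and the difference between both groups was not tested. The eIF2 trimer carries the initiator tRNA with GTP, and the 5-subunit eIF2B recharges it. The 3 eIF2 subunit mRNAs tested had a median log2 ratio of 1.26, the value of *Eif2s2*, and the median was 0.12 without P replicate 3. *Eif2s1*, the subunit that stress kinases phosphorylate, was at 3.08, 6.67 and 0.581 FPKM in NP and at 8.96, 9.52 and 8.53 FPKM in P. Every P library was above every NP library, but the log2 ratio of 1.44 (SE 1.22, adjusted p = 0.525, limma) had a 95% interval of -1.08 to 3.97. *Eif2s2* was at 4.90, 1.14 and 0.0976 FPKM in NP and at 0, 2.98 and 46.3 FPKM in P. The high value came from P replicate 3, and without that library the ratio turned from 1.26 to -0.27. *Eif2s2* shares 10.1% of its 50-base stretches with *Gm9892*, which was at 0, 10.1 and 49.1 FPKM in P replicates 1, 2 and 3, so the part of shared reads in this value was not tested. *Eif2s3x* was at 5.30, 3.17 and 1.51 FPKM in NP and at 8.01, 1.15 and 0.677 FPKM in P, and 34.6% of its 50-base stretches occur elsewhere in the annotation. Its Y-linked paralog *Eif2s3y* was listed at 0 throughout.

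The 5 eIF2B mRNAs all had a ratio below that of the median gene, but *Eif2b3* and *Eif2b5* passed the filter through their NP mean alone, so they could enter only with a higher NP mean. *Eif2b3* was at 13.8, 8.94 and 1.29 FPKM in NP and in P only in replicate 2, at 2.42 FPKM (log2 ratio -2.21, SE 1.18, adjusted p = 0.362, limma). The ratios of the 3 others, *Eif2b1*, *Eif2b2* and *Eif2b4*, ran from -2.56 to -2.10, and each of these 3 had an unadjusted p under 0.05, against 15.8% of all genes. *Eif2b4* was at 1279, 876 and 282 FPKM in NP and at 261, 203 and 28.1 FPKM in P (log2 ratio -2.56, SE 0.82, adjusted p = 0.145, limma). Without P replicate 1 *Eif2b4* passed the threshold, with an adjusted p of 0.0696 (limma). With each library left out in turn, its ratio ranged from -3.19 to -1.56, with an adjusted p up to 0.486 (limma). *Eif2b1* was at 313, 749 and 458 FPKM in NP and at 71.1, 170 and 110 FPKM in P (log2 ratio -2.10, SE 0.70, adjusted p = 0.162, limma). Both genes had FPKM in P below every NP value. *Eif2b5*, the catalytic subunit, was at 44.6, 13.5 and 11.0 FPKM in NP and at 0, 0.273 and 0 FPKM in P, where the single value is worth about 1 read. Its log2 ratio of -4.20 (SE 1.21) had an adjusted p of 0.107 (limma) and rests on values near the limit of detection in P.

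**Figure D4:**
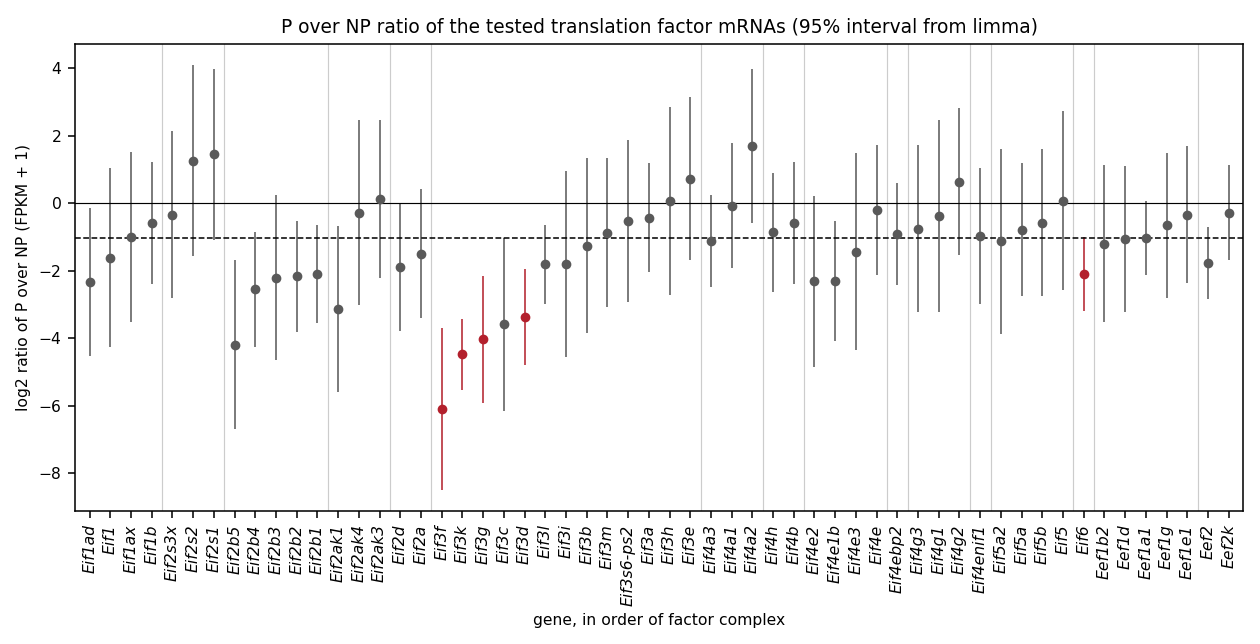
Log2 ratio of P over NP (FPKM + 1) with its 95% interval from limma for the 56 members tested, in order of factor complex. Red points passed the threshold, and the dashed line marks the median of all genes tested at -1.03. The 5 eIF2B mRNAs lie between -4.20 and -2.10, and *Eif4a2*, *Eif2s1* and *Eif2s2* lie highest, with intervals that cross 0.

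Among the kinases that phosphorylate eIF2 and so lower initiation under stress, *Eif2ak1* had the highest mean in NP, and *Eif2ak4* in P. *Eif2ak1* was at 30.5, 39.9 and 27.0 FPKM in NP and at 0, 4.94 and 7.96 FPKM in P, with no overlap (log2 ratio -3.14, SE 1.19, adjusted p = 0.207, limma). *Eif2ak4*, which senses uncharged tRNA, was at 4.77, 17.2 and 9.46 FPKM in NP and at 20.5, 25.0 and 0.0866 FPKM in P. It was thus higher in P replicates 1 and 2 than in any NP library and lowest in P replicate 3, with a log2 ratio of -0.28 and a 95% interval of -3.02 to 2.45. *Eif2ak3* was at 3.13, 1.46 and 0.0759 FPKM in NP and in P only in replicate 2, at 13.2 FPKM. *Eif2ak2*, which senses double-stranded RNA, was listed at 0. The factors outside the trimer that the rule adds, *Eif2d* and *Eif2a*, act in alternative initiation. *Eif2d* was at 93.5, 172 and 336 FPKM in NP and at 24.0, 23.2 and 175 FPKM in P (log2 ratio -1.90, SE 0.92, adjusted p = 0.317, limma, or 0.0915 without P replicate 3). With each library left out in turn, the ratio of *Eif2d* ranged from -2.84 to -1.41, with an adjusted p up to 0.570 (limma). *Eif2a* was at 2.51, 6.58 and 0.216 FPKM in NP and in P only in replicate 2, at 0.430 FPKM or about 3 reads.

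Of 14 eIF4 mRNAs tested none passed the threshold in either direction, 1 (7.14%) had an unadjusted p under 0.05, against 15.8% of all genes, and their median log2 ratio was -0.82. *Eif4a1*, the main helicase of the cap complex, was at 89.3, 51.2 and 106 FPKM in NP and at 132, 24.3 and 126 FPKM in P. *Eif4a2*, its close paralog, was at 14.4, 12.7 and 2.76 FPKM in NP and at 49.2, 18.1 and 27.7 FPKM in P. All P libraries of *Eif4a2* were above its NP libraries, with a log2 ratio of 1.70 (SE 1.10, adjusted p = 0.439, limma) and a 95% interval of -0.58 to 3.98. *Eif4a3*, a core protein of the exon junction complex, was at 541, 431 and 291 FPKM in NP and at 245, 194 and 137 FPKM in P, with no overlap and a log2 ratio of -1.13, close to the median of all genes tested. The differences between these 3 ratios were not tested. *Eif4a1* was above *Eif4a2* in all 6 libraries, with 28.4% and 13.6% of their 50-base stretches found in other genes.

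The cap-binding protein eIF4E had 4 genes in the table. The general form *Eif4e* was at 88.3, 110 and 22.7 FPKM in NP and at 27.5, 83.9 and 62.9 FPKM in P, a log2 ratio of -0.20 with a 95% interval of -2.13 to 1.73. *Eif4e1b*, a form known from oocytes and bound by translational repressors, was at 148, 334 and 373 FPKM in NP and at 16.2, 64.5 and 137 FPKM in P. It was above *Eif4e* in all 3 NP libraries and below it in P replicates 1 and 2. Its P libraries lay below its NP libraries, with a log2 ratio of -2.30 (SE 0.86, adjusted p = 0.201, limma, or 0.0687 without P replicate 3). With each library left out in turn, the ratio of *Eif4e1b* ranged from -2.98 to -1.48, with an adjusted p up to 0.532 (limma). *Eif4e3* was at 230, 25.8 and 213 FPKM in NP and at 755, 42.1 and 1.03 FPKM in P, the widest spread in P among the eIF4 mRNAs above 0 in all P libraries. *Eif4e2*, which competes for the cap without starting initiation, was at 17.3, 13.4 and 0.396 FPKM in NP and at 0, 1.52 and 0.172 FPKM in P.

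The scaffold and accessory mRNAs of the cap complex spanned a wide range of levels. *Eif4g2*, a scaffold that lacks the eIF4E-binding region, was at 11.6, 28.6 and 10.2 FPKM in NP and at 18.4, 41.8 and 17.9 FPKM in P (log2 ratio 0.64, SE 1.05, adjusted p = 0.76, limma). *Eif4g3* was at 7.30, 4.54 and 2.44 FPKM in NP and at 3.86, 2.93 and 0.700 FPKM in P. Neither scaffold was separated between fractions. *Eif4h* was at 350, 131 and 51.8 FPKM in NP and at 93.1, 76.2 and 54.0 FPKM in P, and *Eif4b*, which like it stimulates the helicase, was at 120, 89.5 and 56.6 FPKM in NP and at 124, 44.6 and 31.5 FPKM in P. *Eif4enif1*, the eIF4E transporter of oocyte RNA granules, was at 97.7, 81.2 and 27.7 FPKM in NP and at 44.1, 49.4 and 12.4 FPKM in P (log2 ratio -0.98, SE 0.97, adjusted p = 0.582, limma). The 4E-binding proteins, which block eIF4E until mTOR phosphorylates them, were low or listed at 0. *Eif4ebp1* was at 2.47, 0 and 0.168 FPKM in NP and in P only in replicate 2, at 1.79 FPKM. *Eif4ebp2* was at 1.36, 1.89 and 0 FPKM in NP and listed at 0 in P, where 3 reads would be worth 3.17, 0.454 and 0.335 FPKM in replicates 1, 2 and 3.

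The eIF1 and eIF5 genes were at no more than 161 FPKM in any library. *Eif1*, which guards the start codon, was at 17.7, 3.98 and 13.0 FPKM in NP and at 0, 10.0 and 3.08 FPKM in P, while its paralog *Eif1b* was at 54.6, 138 and 133 FPKM in NP and at 126, 26.7 and 85.9 FPKM in P. *Eif1b* was thus above *Eif1* in all 6 libraries, but 19.2% of the 50-base stretches of *Eif1* occur in other genes, against 4.20% of those of *Eif1b*, and the part of shared reads in this order was not tested. *Eif1ad* had the lowest ratio of the eIF1 genes, at 161, 49.3 and 29.2 FPKM in NP and at 29.7, 7.45 and 6.27 FPKM in P (log2 ratio -2.34, SE 1.06, adjusted p = 0.289, limma). It shares 13.2% of its 50-base stretches with the neighbouring *Banf1*. *Eif5*, which triggers GTP hydrolysis by eIF2, was at 4.38, 17.5 and 0.853 FPKM in NP and at 6.01, 10.8 and 1.59 FPKM in P. *Eif5a*, the hypusinated factor that helps ribosomes over stalling motifs, was at 36.7, 47.1 and 52.1 FPKM in NP and at 18.0, 37.2 and 25.0 FPKM in P. *Eif5a2* was at 28.2, 5.30 and 6.47 FPKM in NP and at 20.8, 4.91 and 0 FPKM in P, below *Eif5a* in every library apart from P replicate 1. None of the eIF1 and eIF5 genes passed the threshold.

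**Figure D5:**
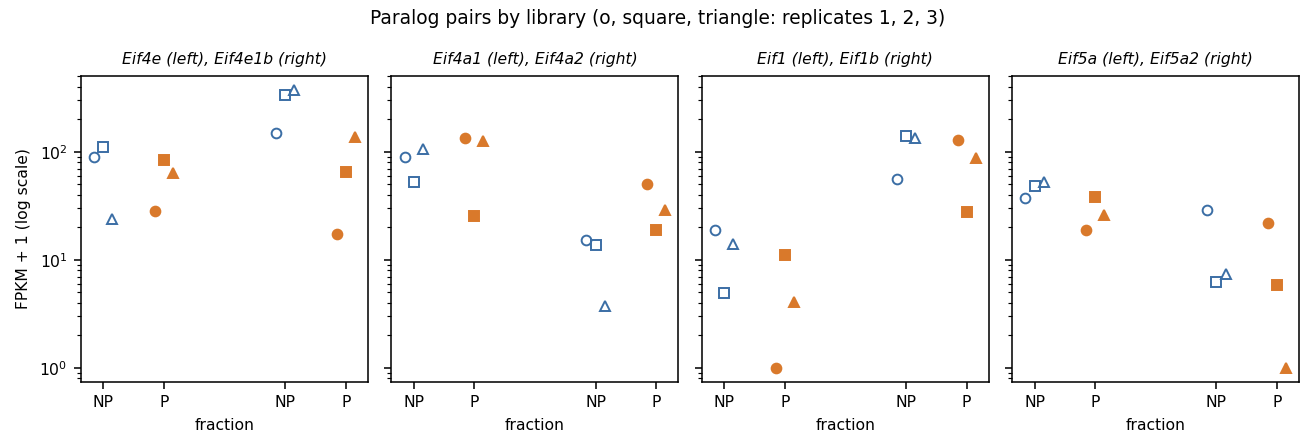
Levels of 4 pairs of paralogous factor mRNAs as FPKM + 1 on a log axis, with circles, squares and triangles for replicates 1, 2 and 3 of NP (open, blue) and P (filled, orange). *Eif1b* lies above *Eif1* and *Eif4a1* above *Eif4a2* in all 6 libraries, whereas *Eif4e1b* lies above *Eif4e* in all 3 NP libraries and in P replicate 3.

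*Eef1a1* and *Eef1g* had the smallest residual SD among the 56 members tested, 0.238 and 0.180 on the log2 scale. *Eef1a1* was at 1107, 1146 and 1038 FPKM in NP and at 465, 692 and 466 FPKM in P. The fractions did not overlap, and the log2 ratio of -1.04 (SE 0.53, adjusted p = 0.339, limma) differed by 0.012 from the median of all genes tested. Its muscle and brain paralog *Eef1a2* was listed at 0 in all 6 libraries. Of the exchange factor, *Eef1b2* was at 13.4, 21.1 and 87.9 FPKM in NP and at 4.82, 10.0 and 35.2 FPKM in P. *Eef1e1* was at 51.7, 21.7 and 33.6 FPKM in NP and at 35.5, 19.5 and 26.3 FPKM in P, so its fractions overlapped. No eEF1 mRNA passed the threshold, and 44.2% of the 50-base stretches of *Eef1g* and 40.4% of those of *Eef1a1* occur in other annotated genes, so their levels depend on how such reads were placed.

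*Eef2* (chromosome 10, 81176631 to 81182507, plus strand) had 1938, 2250 and 1972 FPKM in NP and at 550, 405 and 954 FPKM in P. All P values were below all NP values, and the log2 ratio of -1.78 (SE 0.51) had an adjusted p of 0.106 (limma), just outside the threshold. It passed without P replicate 3 (adjusted p = 0.0448, limma) and with the replicate block (adjusted p = 0.0548, limma). With each library left out in turn, the ratio ranged from -2.12 to -1.50, with an adjusted p up to 0.455 (limma). *Eef2k*, the kinase that inhibits eEF2, was at 420, 335 and 206 FPKM in NP and at 342, 147 and 319 FPKM in P, with a log2 ratio of -0.28 and a 95% interval of -1.68 to 1.12. The difference between the ratios of *Eef2* and *Eef2k* was not tested.

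Outside the symbol rule, 46 other translation genes were looked up, covering termination, poly(A)-binding, cap regulation, eIF2 phosphatases, factor modification and mitochondrial factors. Of the 37 tested, 0 were higher and 0 lower in P by limma without a replicate block. With the block 7 were lower, against 6.27% of all genes. Without it, 12 (32.4%) had an unadjusted p under 0.05, against 15.8% of all genes, and the median log2 ratio was -0.91. Of these 12, *Larp1* and *Mtrf1* passed the filter through their NP mean alone, so they could enter only with a higher NP mean. The oocyte poly(A)-binding protein mRNA *Pabpc1l* was at 830, 884 and 928 FPKM in NP and at 219.6, 217.7 and 216.6 FPKM in P, with a residual SD of 0.0575 on the log2 scale and a log2 ratio of -2.01 (SE 0.59, adjusted p = 0.113, limma). *Ddx3x*, a helicase of structured leaders, was at 8.73, 12.6 and 5.72 FPKM in NP and at 41.6, 49.6 and 43.2 FPKM in P, a log2 ratio of 2.25 (SE 1.02, adjusted p = 0.291, limma). *Dph3*, needed for the diphthamide of eEF2, was at 30.2, 106 and 90.4 FPKM in NP and at 17.2, 0.739 and 2.72 FPKM in P, with the lowest ratio of this list at -3.78 (SE 1.15, adjusted p = 0.123, limma). These 3 genes were chosen for mention after their values were seen.

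Lengths were set beside the ratios as well. Over 55 members with an annotated transcript, the log2 ratio correlated with coding length at Spearman's rho = 0.125, with the length of the 5′ leader at 0.116 and with transcript length at 0.242, against 0.138, 0.0556 and 0.184 over 8975 genes tested. These are descriptions across genes that share the same 6 libraries.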

How the data were processed

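RNA-Seq values of 3 NP and 3 P libraries from AF oocytes were used as deposited. The authors depleted rRNA, amplified the cDNA by whole transcriptome amplification and prepared Nextera libraries. Per the submitters' processing notes and the methods, reads were trimmed with Trim Galore 0.4.1, checked with FastQC 0.11.5 and aligned to GRCm38 with HISAT2 2.0.5, and the deposited FPKM per gene were made in Seqmonk. Which annotation, strand setting and read filters were used is not given in the sources used here. Because FPKM is relative to all mapped reads, reads outside listed genes lower every value of their library. The mean columns of the table were not used.

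For duplicated symbols (66 rows) the row with the highest mean was kept. The comparison of P with NP was fitted in R 4.3.3 by limma 3.58.1 to log2(FPKM + 1), with the prior spread allowed to follow the level, a two-sided test, Benjamini-Hochberg adjustment over all genes tested and a threshold of 0.1. Fold changes on this scale understate those of low genes. The study states no model for P against NP. The fit was tested on simulated data, where at the median spread of these libraries most changes that had been put in were missed, so a gene that misses the threshold is not shown to be unchanged. The median residual SD on the log2 scale was 1.22 over all genes tested and 1.02 over the members.

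Depth was estimated from the steps between low values with exon lengths of GENCODE M21, which matched 62 members, and 57.6% to 64.6% of the low values per library were whole within 0.02 reads. Amplified reads are not independent molecules, so read limits cover counting error only. Shared sequence is the share of 50-base stretches of a gene's exons found in other M21 genes. Promoter windows are from RefSeq (GRCm38.p6).

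The members and the gene lists were chosen with earlier results of these data known. Values in every library are given for members past the threshold with or without a replicate block, those with the highest level and the highest and lowest ratio in each complex, those higher in P in all same-numbered libraries, and 6 paralog pairs. *Eif2b3* and *Eif2ak4* were added after their values were seen. As alternatives, the pseudocount, filter, scaling, spread model and threshold were changed, the replicate number was added as a block, and each library was left out. Plots were made in Python 3.11.15.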

Additional observations from a re-analysis of the deposited data

How the results depend on the processing

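The 5 members lower in P became 0 with no filter on low values (14 of 63 members, 22.2%, then had an unadjusted p under 0.05 by limma, against 6.85% of all genes), and 1 with no trend, with median-of-ratios scaling, with quantile normalization and with a common FPKM sum. The count was 4 at a threshold of 0.05 or a pseudocount of 0.1, 5 at a pseudocount of 5 and 7 with a mean above 5 FPKM. Leaving out each library in turn gave 1 to 10. Over all genes, 190 were lower in P, which became 1 with no filter, 15 with no trend, 1, 2 and 5 under the 3 scalings in the same order, 63 at a threshold of 0.05, 67 and 154 at pseudocounts of 0.1 and 5, 208 with a mean above 5 FPKM and 1 to 328 with a library left out. *Eif3k* was past the threshold in 13 of 15 alternatives, *Eif3f* in 8, *Eif3g* and *Eif3d* in 7 and *Eif6* in 4, and all 5 stayed lower in P in each. No member was past the threshold and higher in P under any alternative run. The cause of these losses was not tested.

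The methods state that NP and P were pooled from the fractions of each sample, but no source used here says that libraries with the same replicate number came from the same sample. Deviations from the group means correlated over genes at 0.063, 0.099 and 0.116 for libraries with the same number and at -0.089 to 0.021 for the others, so each library correlated best with its own number, as a hint from the data. With the replicate block 11 members were lower in P, against 5 without it, the added ones being *Eef2*, *Eif2b1*, *Eif2b4*, *Eif2b5*, *Eif3c* and *Eif3l* (adjusted p = 0.0548, 0.0930, 0.0382, 0.0355, 0.0567 and 0.0460, limma), and over all genes 6.27% were lower, against 1.8%. Of the added members, *Eif2b5* was at 0, 0.273 and 0 FPKM in P and had passed the filter through its NP mean alone, so it could enter only with a higher NP mean. Of the other translation genes 7 were lower with the block, against 0 without it.

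The median log2 ratio of the members was -0.15, 0.019 and -0.18 under median-of-ratios scaling, quantile normalization and a common FPKM sum, against -0.37, 0.0027 and -0.43 for all genes tested, and from -1.37 to -0.77 with a library left out. The numbers of members with a mean above 1 FPKM, 56 in NP and 50 in P, were 45 and 41 above 5 FPKM, and ranged from 52 to 57 and from 46 to 51 with a library left out.

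Of 44 named genes tested, no value past the threshold changed sign, while 56 of the other values did over 16 alternatives. Of these changes 33 came under the 3 scalings, which also moved the median of all genes from -1.03 to -0.37, 0.0027 and -0.43. A change of sign there thus includes a shift shared by most genes. Median-of-ratios scaling gave *Eif2ak4* 0.39, *Eif4e* 0.79, *Eif4h* 0.12, *Eef2k* 0.72, *Eif1b* 0.40, *Eif4a1* 0.90, *Eif5a* 0.19, *Eef1e1* 0.62, *Eif4b* 0.39 and *Eif2s3x* 0.32. Quantile normalization gave *Eif2ak4* 1.19, *Eif4e* 0.76, *Eif4g3* 0.54, *Eif4h* 0.089, *Eef2k* 0.72, *Eif1b* 0.34, *Eif4ebp2* 0.11, *Eif4enif1* 0.11, *Eif4a1* 0.83, *Eif5a* 0.31, *Eef1e1* 0.72, *Eif4b* 0.43 and *Eif2s3x* 1.02. The common FPKM sum gave *Eif2ak4* 0.51, *Eif4e* 0.72, *Eif4h* 0.055, *Eef2k* 0.65, *Eif1b* 0.34, *Eif4a1* 0.84, *Eif5a* 0.12, *Eef1e1* 0.56, *Eif4b* 0.33 and *Eif2s3x* 0.30. A pseudocount of 0.1 gave *Eif2ak3* -0.91 and one of 5 gave *Eif5* -0.036 and *Eif2ak4* 0.10. With a library left out, *Eif2s2* ranged from -0.27 to 2.52, *Eif2ak4* from -1.09 to 1.20, *Eif5a2* from -2.19 to 0.030, *Eif4e* from -0.89 to 0.25, *Eif2ak3* from -1.15 to 0.77, *Eif4e3* from -3.55 to 0.72, *Eef2k* from -0.57 to 0.10, *Eif1b* from -1.04 to 0.057, *Eif4a1* from -0.49 to 0.71, *Eif5* from -0.74 to 0.92, *Eif3e* from -0.23 to 1.66 and *Eif2s3x* from -1.09 to 0.12. The depth of AF P replicate 1, where 3 reads of a 2 kb transcript are worth 9.16 FPKM, limits what can be said of members under about that level.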
